A study of Mus musculus with 9 samples.

Results

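The heat shock protein and chaperone genes described here, 10 in number, are Hspb1, Hspa4, Hspa5, Hspa8, Hsp90aa1, Hsp90ab1, Hspd1, Hspe1, Hsph1 and Dnajb1, compared across mouse cornea, lens and tendon. A gene was measured through every probe set that the platform annotation gives to it alone, which found 15 of the 12488 probe sets on the arrays, for 9 of the 10 genes. Hsp90ab1 was not analysed here. Of the 9 genes, 8 passed the filter on low values with at least 1 probe set and were tested, and Hspb1 did not. Biotin-labelled RNA was hybridised to 9 Affymetrix mouse arrays. Of these, 3 held cornea of adult mice and 2 each held cornea at postnatal day 10 (P10), adult lens and adult tendon, the latter from flexor digitorum longus. All adult tissue was taken at 7 weeks of age. No treatment was applied, and strain and genotype are not given in the sources used here. Corneas were cut free of the limbus and scraped, which lowered the epithelial share of the tissue without removing it. For lens and tendon, tissue was pooled before extraction, so the spread between their arrays is between pools. The cornea arrays had also served an earlier study, so array batch and tissue cannot be told apart wherever cornea is set against the other tissues.

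Chaperones bind unfolded or partly folded proteins and let them fold, or hand them on for assembly or degradation. Hsp70 proteins (Hspa genes) bind short exposed stretches, J-domain proteins such as Dnajb1 load them with clients, and Hsp110 proteins such as Hspa4 and Hsph1 help them release ADP. Hsp90 proteins take over clients at a late stage, small heat shock proteins such as Hspb1 hold proteins without using ATP, and the mitochondrial chaperonin folds proteins in a chamber of Hspd1 (Hsp60) closed by a lid of Hspe1 (Hsp10). Heat shock factors raise many of these genes under stress through heat shock elements, inverted repeats of the letters GAA, while Hspa5 (BiP), the Hsp70 of the endoplasmic reticulum, answers mainly to the unfolded protein response. In the lens, small heat shock proteins of the crystallin family make up much of the soluble protein of fibre cells, which lose their organelles as they mature.

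Promoter stretches are shown for 3 genes as examples of the letters of the heat shock and endoplasmic reticulum stress elements. They were taken from the RefSeq promoter table of mouse build GRCm38.p6 and run from 130 bases before the transcription start to 1 base before it, all on the plus strand. Capitals mark matches to the heat shock element (Hspe1 and Hspb1) or to the endoplasmic reticulum stress element (Hspa5).

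Hspe1, chr1:55088018-55088147: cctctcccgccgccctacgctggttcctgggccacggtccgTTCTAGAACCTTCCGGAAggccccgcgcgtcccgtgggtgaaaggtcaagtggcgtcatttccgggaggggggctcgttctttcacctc

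Hspb1, chr5:135887789-135887918: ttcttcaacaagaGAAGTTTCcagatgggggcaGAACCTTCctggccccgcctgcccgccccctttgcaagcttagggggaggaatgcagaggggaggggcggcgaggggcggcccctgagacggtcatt

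Hspa5, chr2:34771960-34772089: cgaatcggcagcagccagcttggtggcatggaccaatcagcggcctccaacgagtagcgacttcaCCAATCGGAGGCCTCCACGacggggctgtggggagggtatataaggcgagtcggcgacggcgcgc

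The table holds windows of 250 bases before to 50 after the start for 7 of the 10 genes, 10 windows in all, and none was taken for Hspa8, Hsp90aa1 and Hsp90ab1. A heat shock element pair was searched on both strands as GAANNTTC or TTCNNGAA, where N is any base. A triple adds another alternating unit of GAA or TTC after 2 further free bases, so that every triple also holds pairs. The pair was found in 4 genes (Hspb1, Hspd1, Hspe1 and Hsph1), and in 15.1% of all 32851 windows of the same length. The triple was found in 3 genes (Hspd1, Hspe1 and Hsph1), and in 0.603% of all windows. In Hspe1 it lies 89 to 72 bases before the start, where overlapping triples make up the capitals of the printed stretch. The same bases belong to the window of Hspd1, which is read from the opposite strand. That Hspd1 start lies 216 bases from the start of Hspe1, with the triples between them. A second Hspd1 start lies 95 bases beyond that of Hspe1, and its window holds 0 pairs and 0 triples. In Hsph1 the triple TTCTGGAAAGTTC lies on the minus strand at chr5:149636288-149636300, 16 to 28 bases after one of its starts. The endoplasmic reticulum stress element, CCAAT and CCACG with 9 free bases between them, was searched on both strands and found in the Hspa5 window 65 to 47 bases before the start and in 0.119% of all windows. None of these motifs was found in the windows of Hspa4 and Dnajb1. A match describes letters in these windows and is no evidence of binding.

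All values are deposited expression indices per array in arbitrary units. Log2 differences and folds are on the scale of log2(index + 16), which understates the differences of dim probe sets, and SE is the standard error of the log2 difference. Adjusted p-values come from limma with Benjamini-Hochberg adjustment over all 8154 tested probe sets, and a difference was called at an adjusted p under 0.05. The indices of different probe sets carry different affinities and are not set against each other. The number of arrays limits the precision. Median indices of the arrays ran from 67.6 to 88.0. Adult cornea replicate 1 stood apart in RNA quality, with a 3′ to 5′ ratio of Gapdh probe sets of 2.25 against 0.831 to 1.04 on the other 8 arrays, and of actin of 4.69 against 1.07 to 2.07.

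The tissue labels were set against marker lists, summed over the genes on the arrays with values below 0 taken as 0. The corneal epithelial markers (14 of 15) summed to 30103 to 32998 on the cornea arrays and to 1200 to 4077 on the others, so scraped corneas kept a strong epithelial signal. Krt12, the keratin of corneal epithelium, had a mean index of 7197 ± 948 (SD, n = 3) in adult cornea. The stromal markers (10 of 10), with Kera, a stromal proteoglycan, among them, summed to 7776 to 8772 in adult to 19088 to 19736 in P10 cornea, to 1262 to 1938 in lens and, highest, to 24570 to 26654 in tendon, so that list did not set cornea apart. The lens markers (6 of 12) summed to 31788 to 33155 in lens, 4181 to 9614 in cornea and 184 to 199 in tendon. Most of the cornea sum came from the crystallins Crybb2, Cryba1, Crygs and Crygd. The remaining lens markers were low in cornea. Mip read 27.2 to 76.5 there against a mean of 1859 in lens, and Bfsp1 61.5 to 147 against 3516. The skeletal muscle markers (14 of 15) summed to 53168 to 63602 in tendon and to no more than 1470 on any other array, and the tendon markers (3 of 8) to 10966 to 12299 in tendon and to no more than 773 elsewhere. The tendon samples therefore carried strong muscle signal, with Acta1, the actin of skeletal muscle, at a mean index of 3878 ± 607 (SD, n = 2), beside the tendon proteoglycan Fmod at 5899 ± 627 (SD, n = 2). Leukocyte markers (10 of 10) and adipocyte markers (5 of 7) were also highest in tendon, at 4119 to 4402 and 4147 to 4484, and reached no more than 1931 and 1834 elsewhere. Bright probe sets weigh most in such sums, as Fcer1g did in tendon with a mean of 2216. Of 8 tested leukocyte genes 5 were called higher in tendon than in lens and 0 lower, and of 4 adipocyte genes 3 and 0. The lens means of Cd52 (113), Cd68 (120) and Lep (1475) lay above those of tendon (80.9, 96.4 and 998). Over all tested probe sets 26.4% were called higher in tendon than in lens. Fewer cells of a type and less RNA per cell cannot be told apart in such tissue samples. The part of lens, muscle, fat, leukocyte or epithelial RNA in any difference below was not tested.

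Across the tissues, 4 of the tested members had their highest level in lens, and no member was called between the ages of cornea. Of the 8 tested genes, 4 were called lower in adult cornea than in lens (Hsp90aa1, Dnajb1, Hspe1 and Hspa8) and 0 higher, where 24.0% of all tested probe sets were called lower and 27.2% higher, 51.2% in all. Between P10 cornea and lens 3 genes were called lower in the cornea (Hsp90aa1, Dnajb1 and Hspe1), where 19.4% of all tested probe sets were called lower and 31.6% higher, 51.0% in all. Against tendon, 4 genes were called higher in lens (the same 4 as against adult cornea), 3 in adult cornea and 3 in P10 cornea (Hsp90aa1, Dnajb1 and Hspa4 in each cornea), where 22.6%, 16.1% and 15.7% of all tested probe sets were called higher and 26.4%, 18.9% and 11.0% lower. These counts take each gene through its brightest probe set, and by that measure no member was called in the other direction in these 5 comparisons. Dimmer probe sets of Hspa4 and Hspd1, given below, were called higher in adult cornea than in lens. Between adult and P10 cornea 0 of the 8 genes were called by limma, where 4.57% of all tested probe sets were called, 0.699% higher and 3.88% lower in the adult. At an unadjusted p under 0.05 there was 1 gene (Hspa8), and the methods' t-test also called 0.

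The median log2 difference of the 8 genes was -0.36 for adult cornea minus lens, against 0.08 over all tested probe sets. It was -0.21 against 0.25 for P10 cornea minus lens, and 0.70 against -0.07 for lens minus tendon. For adult cornea minus tendon it was 0.42 against 0.01, for P10 cornea minus tendon 0.62 against 0.13, and for adult minus P10 cornea -0.10 against -0.13. Without adult cornea replicate 1 the counts were the same in all 6 comparisons. Without adult cornea replicate 3 that of adult cornea against lens stayed at 4 while its genes changed. Dnajb1 was lost (adjusted p = 0.061) and Hspa4 was called higher in the cornea (log2 difference 0.80, adjusted p = 0.0149). Without lens replicate 1, adult cornea minus lens was -0.43 for Dnajb1 and 0.92 for Hspa4. P10 cornea minus lens was then -0.68 for Dnajb1 and 0.75 for Hspa5. Leaving out tendon replicate 1 took the count of P10 cornea against tendon from 3 to 1, and leaving out tendon replicate 2 or P10 cornea replicate 1 took it to 2. Leaving out P10 cornea replicate 2 took the count of P10 cornea against lens from 3 to 2.

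**Figure D1:**
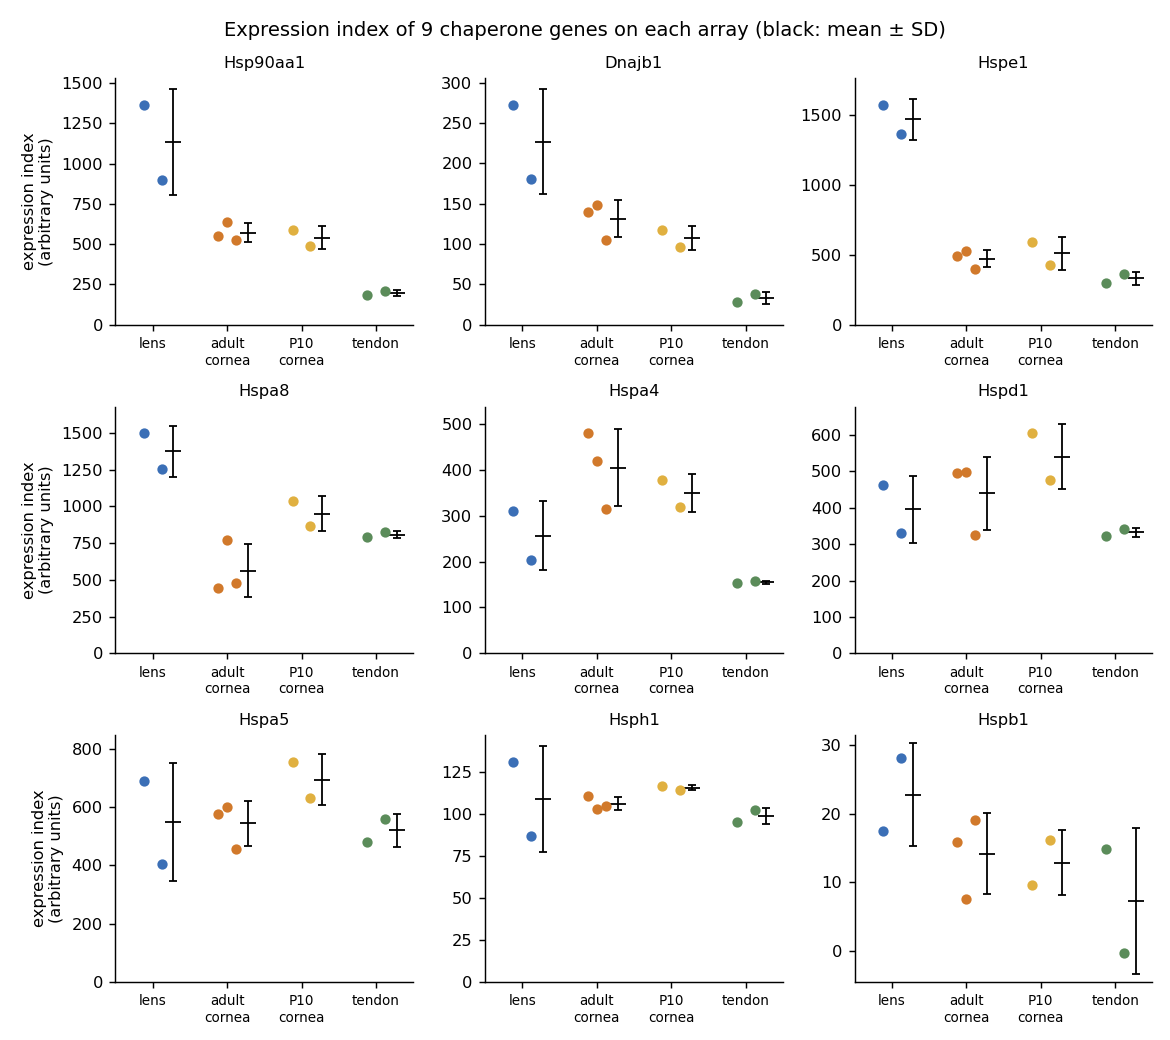
Expression index (linear axis, arbitrary units) of 9 chaperone genes on each of the 9 arrays, by tissue, 1 panel a gene with its own scale; points are arrays and black marks the group mean ± SD. The 2 lens arrays stand above all others for Hsp90aa1, Dnajb1, Hspe1 and Hspa8, and all Hspb1 values lie at or below 28.1.

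Hsp90aa1, the inducible cytosolic Hsp90, which matures kinases, steroid receptors and other clients, followed the order lens, cornea, tendon. Its probe set 95282_at read 1364 and 898 in lens, 548, 638 and 527 in adult cornea, 591 and 489 in P10 cornea, and 184 and 209 in tendon. Lens was above every cornea array and tendon below every one, while the corneas of both ages overlapped. The mean was 1131 ± 329 (SD, n = 2) in lens, 571 ± 59.2 (SD, n = 3) in adult cornea, 540 ± 72.3 (SD, n = 2) in P10 cornea and 197 ± 17.8 (SD, n = 2) in tendon. Lens exceeded tendon 5.30-fold (log2 difference 2.40, SE 0.24, adjusted p = 1.95e-05), adult cornea 1.92-fold (adjusted p = 0.0048) and P10 cornea 2.03-fold (adjusted p = 0.00546). Adult cornea exceeded tendon 2.76-fold (adjusted p = 0.000494) and P10 cornea exceeded it 2.61-fold (adjusted p = 0.00199). The ages of cornea did not differ beyond the spread (log2 difference 0.08, 95% interval -0.40 to 0.56). All 5 calls were kept in each of 19 alternatives fitted with limma, while the methods' t-test made 2 of them, and 1 after adjustment. The other Hsp90aa1 probe set, 161869_i_at, read between -13.2 and 49.4 on the 9 arrays and was not tested.

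Dnajb1, the J-domain protein that loads Hsp70 with misfolded clients in the heat shock response, had the same order at lower indices. Its probe set 96254_at read 273 and 181 in lens, 140, 148 and 105 in adult cornea, 117 and 96.5 in P10 cornea, and 28.1 and 38.4 in tendon. No lens value overlapped with cornea and no cornea value with tendon. Lens exceeded tendon 4.86-fold (log2 difference 2.28, SE 0.26, adjusted p = 4.53e-05), and adult and P10 cornea exceeded it 2.98-fold (adjusted p = 0.000484) and 2.50-fold (adjusted p = 0.00396). Lens exceeded adult cornea 1.63-fold (adjusted p = 0.0282) and P10 cornea 1.94-fold (adjusted p = 0.0108). These last calls were the less firm: that against adult cornea was lost without lens replicate 1 (adjusted p = 0.218) or without adult cornea replicate 3 (adjusted p = 0.061), and that against P10 cornea without lens replicate 1 (adjusted p = 0.075) or P10 cornea replicate 2 (adjusted p = 0.0771). The call against adult cornea was also lost with a replicate block (adjusted p = 0.0771) and when adult cornea and lens were fitted alone (adjusted p = 0.0773). The call of P10 cornea against tendon was lost without tendon replicate 1 (adjusted p = 0.0569). The methods' t-test, which also asks for a difference of at least 100 index units, made 0 of the 5 Dnajb1 calls.

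Hsp90aa1 and Dnajb1 were each other's closest match. Among 7233 tested probe sets with a single gene symbol, the highest Pearson correlation of log2 values with Hsp90aa1 over the 9 arrays was that of Dnajb1 (r = 0.989), and the reverse held too. This describes 9 arrays of 4 groups, which share tissue and array, and carries no p. After Dnajb1, the closest to Hsp90aa1 were probe sets of Cadm1, with r = 0.987 and 0.982. After Hsp90aa1, the closest to Dnajb1 were Gipc1 (r = 0.984) and Txndc12 (r = 0.982).

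The 2 parts of the mitochondrial chaperonin did not share a pattern. Hspe1, the lid, was far higher in lens than elsewhere, while Hspd1, the chamber, passed the test in no comparison through its brightest probe set. Hspe1 (92829_at) read 1574 and 1367 in lens, 493, 525 and 403 in adult cornea, 595 and 425 in P10 cornea, and 301 and 367 in tendon. The lens values lay far above all others, and cornea lay above tendon with no overlap. The mean was 1471 ± 146 (SD, n = 2) in lens, 474 ± 63.3 (SD, n = 3) in adult cornea, 510 ± 120 (SD, n = 2) in P10 cornea and 334 ± 46.4 (SD, n = 2) in tendon. Lens exceeded tendon 4.25-fold (log2 difference 2.09, SE 0.23, adjusted p = 4.25e-05), adult cornea 3.05-fold (adjusted p = 0.000146) and P10 cornea 2.86-fold (adjusted p = 0.000451), and these calls were kept in each of 19 alternatives fitted with limma. The methods' t-test made all 3, and 1 after adjustment. The difference of adult cornea from tendon was 0.48 on the log2 scale (SE 0.21, adjusted p = 0.107) and was called only after quantile normalization or scaling by the trimmed mean. Closest to Hspe1 over the 9 arrays were Washc3 (r = 0.991), Mrps33, a mitochondrial ribosomal protein (r = 0.989), and Vps29 (r = 0.988).

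Hspd1 (93277_at) read 462 and 331 in lens, 495, 500 and 324 in adult cornea, 605 and 477 in P10 cornea, and 323 and 341 in tendon. Every neighbouring pair in the order of its means, P10 cornea, adult cornea, lens and tendon, overlapped. Lens minus tendon was 0.23 on the log2 scale (95% interval -0.37 to 0.82) and adult cornea minus lens 0.14 (95% interval -0.41 to 0.68). The widest difference, P10 cornea minus tendon, was 0.67 (SE 0.27, adjusted p = 0.092) and was called in 5 of 19 alternatives fitted with limma. The second Hspd1 probe set, 161140_r_at, read 76.3 and 78.8 in lens, 112, 118 and 146 in adult cornea, 113 and 127 in P10 cornea, and 54.0 and 79.8 in tendon. It was called higher in adult cornea than in lens (1.50-fold, adjusted p = 0.0332) and tendon (1.72-fold, adjusted p = 0.013) and in P10 cornea than in tendon (1.65-fold, adjusted p = 0.0351). Neither Hspd1 probe set was called higher in lens than in any other tissue.

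The difference Hspe1 minus Hspd1, taken on the log2 scale on each array, was 1.73 and 1.99 in lens. It was -0.01, 0.07 and 0.30 in adult cornea, -0.02 and -0.16 in P10 cornea, and -0.10 and 0.10 in tendon. Its zero has no meaning, since the probe sets differ in affinity, but the 2 lens arrays stood apart from the other 7. The triples shown above lie between the Hspe1 start and one of the Hspd1 starts. The Pearson correlation of the pair over the 9 arrays was 0.158, against 0.867 for Hspd1 with Hspa5 and 0.869 for Hspe1 with Hsp90aa1, each as a description of arrays that share groups.

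**Figure D2:**
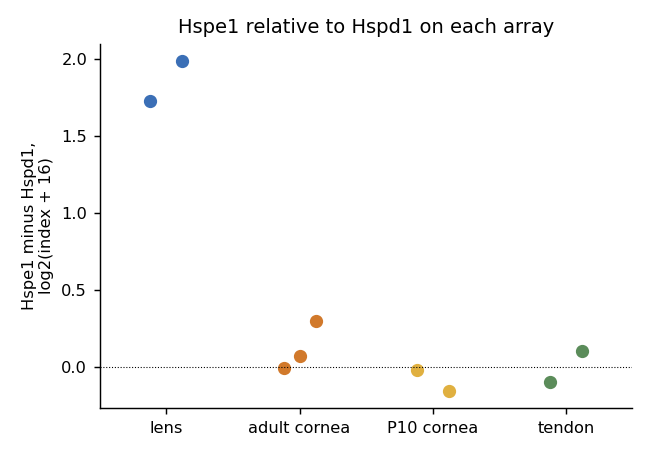
Hspe1 minus Hspd1 on the log2(index + 16) scale for each of the 9 arrays, by group; each point is 1 array and the dotted line marks 0. The lens arrays lie at 1.73 and 1.99 and the other 7 between -0.16 and 0.30.

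Among the cytosolic Hsp70 system, Hspa8 (Hsc70), the constitutive Hsp70 that also uncoats clathrin vesicles, was highest in lens and lowest in adult cornea. Its probe set 96564_at read 1498 and 1252 in lens, 442, 769 and 475 in adult cornea, 1035 and 868 in P10 cornea, and 790 and 824 in tendon. Adult cornea lay below every other group with no overlap, though its replicate 2 came close to tendon. The mean was 1375 ± 174 (SD, n = 2) in lens, 562 ± 180 (SD, n = 3) in adult cornea, 952 ± 118 (SD, n = 2) in P10 cornea and 807 ± 24.0 (SD, n = 2) in tendon. Lens exceeded adult cornea 2.47-fold (log2 difference of adult cornea minus lens -1.30, SE 0.24, adjusted p = 0.00131), a call kept in each of 19 alternatives fitted with limma and made by the methods' t-test, but not after adjustment. Lens exceeded tendon 1.68-fold (adjusted p = 0.0375), and this call was lost when any of 6 arrays was left out, both lens, both tendon and both P10 cornea arrays (adjusted p from 0.0527 to 0.157).

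Hspa8 was the member nearest to a difference between the ages of cornea. Adult minus P10 cornea was -0.78 on the log2 scale (SE 0.24, 95% interval -1.32 to -0.24, unadjusted p = 0.00882, adjusted p = 0.117). Adult cornea replicate 2 decided this value, which had an adjusted p of 0.0161 without it. Without the same array adult cornea was also called lower than tendon (adjusted p = 0.00921, against 0.103 with it), and P10 cornea lower than lens (adjusted p = 0.0366, against 0.123). The latter comparison does not hold that array, which enters it only through the shared spread. Its log2 difference was -0.52 with and without the array. Closest to Hspa8 over the 9 arrays were Pdia6, a disulfide isomerase of the endoplasmic reticulum (r = 0.977), Rnf13 (r = 0.969) and St13, a co-chaperone of Hsp70 (r = 0.965).

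Hspa4 (Apg-2), an Hsp110-type exchange factor for Hsp70, was the member with its highest mean in adult cornea. Its brightest probe set, 96594_at, read 311 and 203 in lens, 480, 419 and 314 in adult cornea, 379 and 320 in P10 cornea, and 152 and 157 in tendon. Every cornea array lay above both lens arrays, though adult cornea replicate 3 by little, and tendon lay below all. Adult cornea exceeded tendon 2.43-fold (log2 difference 1.28, SE 0.24, adjusted p = 0.0022) and P10 cornea exceeded it 2.14-fold (adjusted p = 0.0126). The P10 call was lost without tendon replicate 1 (adjusted p = 0.0955), tendon replicate 2 (adjusted p = 0.0784) or P10 cornea replicate 1 (adjusted p = 0.101). Adult cornea minus lens was 0.63 (SE 0.24, adjusted p = 0.0502) and was called in 6 of 19 alternatives fitted with limma, and lens minus tendon was 0.65 (SE 0.26, adjusted p = 0.0653) and was called in 5 of them. Closest to this probe set over the 9 arrays were Gltp (r = 0.992), Ap2s1 (r = 0.990) and Clock (r = 0.990).

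The other 4 probe sets given to Hspa4 did not repeat this pattern. Probe set 100353_g_at had means of 125 in lens, 116 in adult cornea, 170 in P10 cornea and 175 in tendon, so that tendon was its highest group, with adult cornea minus tendon at -0.56 (adjusted p = 0.0646). Probe set 100352_at had means of 59.8, 66.5, 90.9 and 101 in the same order. Probe set 92571_at had means of 39.8, 84.6, 67.0 and 69.7 and was called higher in adult cornea than in lens (log2 difference 0.91, SE 0.31, adjusted p = 0.0309). Probe set 161745_f_at, with means of 48.7 to 57.5, was not tested. With the mean over probe sets in place of the brightest, adult cornea against tendon had an adjusted p of 0.754 and P10 cornea against tendon one of 0.547, so the Hspa4 differences rest on 96594_at.

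**Figure D3:**
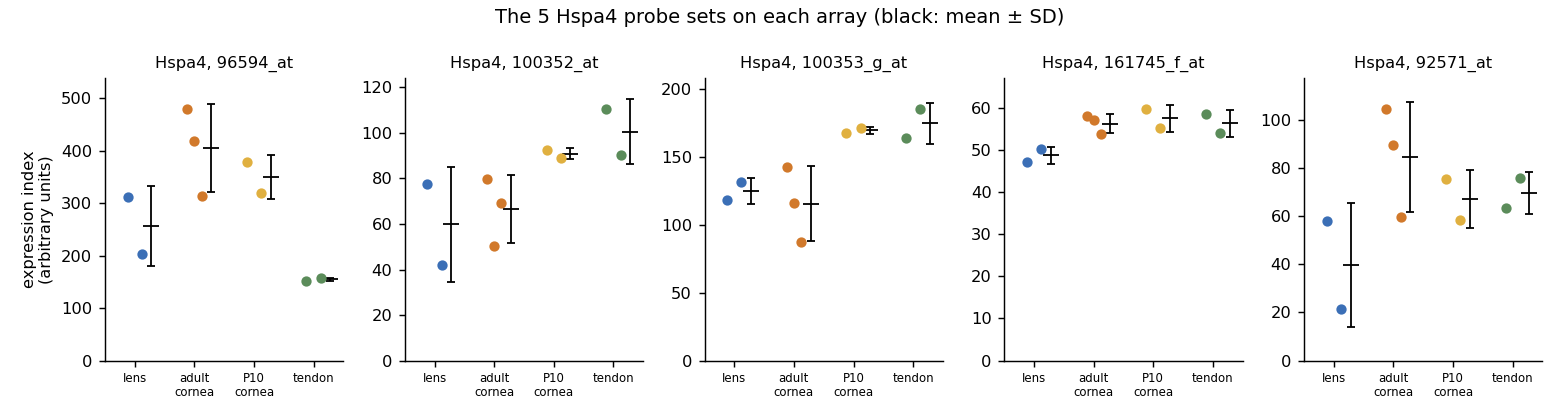
Expression index (linear axis, arbitrary units) of the 5 probe sets given to Hspa4 on each of the 9 arrays, each panel with its own scale; points are arrays and black marks the group mean ± SD. Tendon is lowest for 96594_at, with a mean of 154, and highest for 100352_at and 100353_g_at, with means of 101 and 175.

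Hspa5 and Hsph1 showed no called difference in any of the 6 comparisons. Hspa5, the chaperone of the endoplasmic reticulum lumen, read 692 and 404 in lens, 576, 600 and 457 in adult cornea, 756 and 633 in P10 cornea, and 481 and 560 in tendon through 101955_at. The 2 lens arrays spanned nearly the whole range of the gene. Adjusted p-values ran from 0.263 to 0.944, and the 95% intervals of the log2 differences reached from -0.89 to 1.00, so differences of up to about that size were not excluded. P10 cornea was called higher than lens only without lens replicate 1 (adjusted p = 0.0406). Hsph1 (Hsp105), a stress-inducible Hsp110, read 131 and 86.5 in lens, 110, 103 and 105 in adult cornea, 117 and 114 in P10 cornea, and 95.1 and 102 in tendon through 98111_at. Its adjusted p-values ran from 0.539 to 0.972 and its intervals reached from -0.54 to 0.67. Both genes carry stress elements in their windows, Hsph1 the heat shock triple and Hspa5 the endoplasmic reticulum stress element shown above.

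Hspb1 (Hsp25), a small heat shock protein that binds actin and unfolded proteins, had a single probe set, 92853_at, and read at the bottom of every array. Its values were 17.5 and 28.1 in lens, 15.9, 7.58 and 19.1 in adult cornea, 9.56 and 16.2 in P10 cornea, and 14.8 and -0.24 in tendon. These stood between percentiles 1.97 and 26.2 of their arrays, and no test was made. The lens values lay above those of P10 cornea and tendon and overlapped with adult cornea.

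Differences between arrays of one tissue ran the same way over most members. All 8 tested genes were higher on lens replicate 1 than on lens replicate 2, all 8 were higher on P10 cornea replicate 1 than on replicate 2, and all 8 were lower on tendon replicate 1 than on replicate 2. On adult cornea replicate 3, 6 of the 8 were the lowest of their group. The trimmed means of the lens arrays were 143 and 123, those of P10 cornea 144 and 137 and those of tendon 131 and 138, so the arrays' general level moved the same way in each pair. Its part in the members' values was not tested. No member's call changed direction under quantile normalization or trimmed mean scaling.

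**Figure D4:**
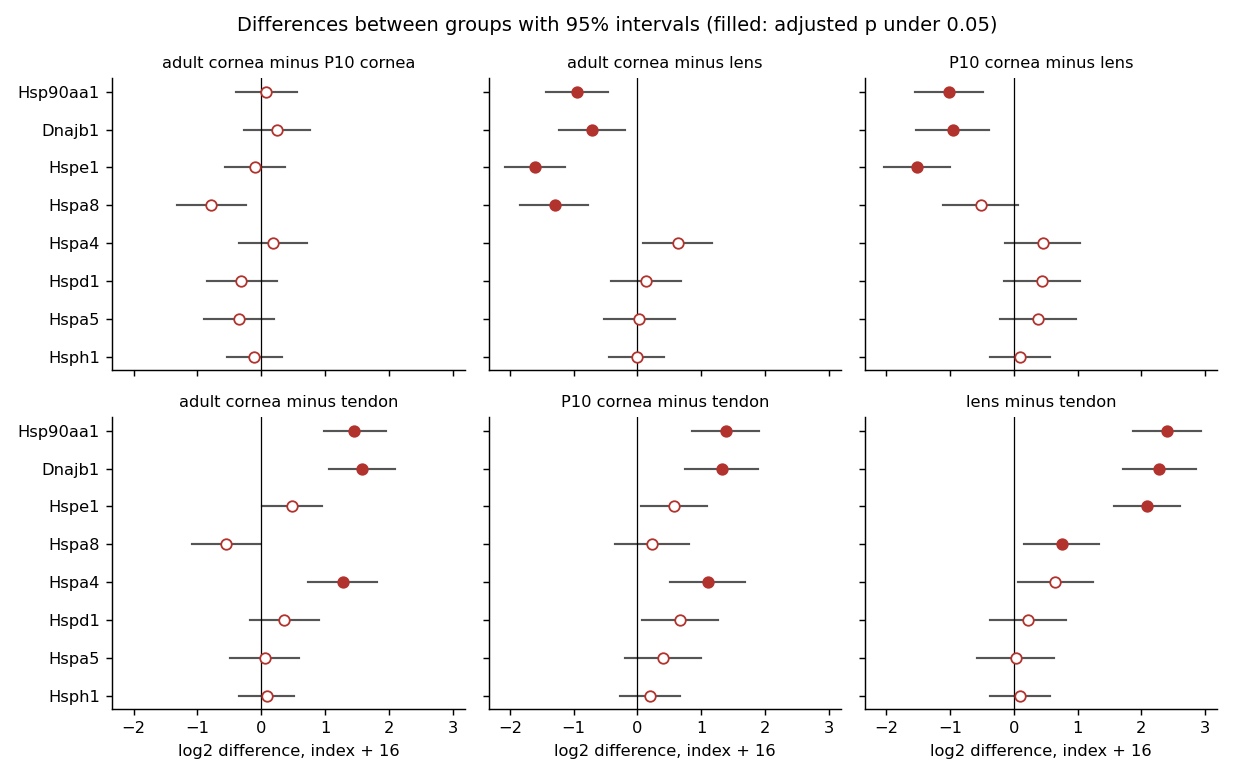
Log2 differences of the 8 tested chaperone genes in the 6 comparisons, with 95% intervals from limma; filled points had an adjusted p under 0.05. Lens minus tendon runs from 0.03 for Hspa5 to 2.40 for Hsp90aa1, and no point is filled for adult minus P10 cornea.

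The wider chaperone network was read through 7 lists of 116 genes, of which 93 were on the arrays with a probe set of their own and 81 were tested. Beside the share of all tested probe sets called, the lists had 15 higher and 27 lower in adult cornea than in lens (51.9% against 51.2%), and 2 lower in adult than in P10 cornea (2.47% against 4.57%). Lens and tendon differed in 36 (27 higher in lens and 9 lower, 44.4% against 49.0%). Adult cornea and tendon differed in 20 (11 higher in cornea and 9 lower, 24.7% against 35.0%), P10 cornea and lens in 41 (20 higher in cornea and 21 lower, 50.6% against 51.0%), and P10 cornea and tendon in 15 (11 higher in cornea and 4 lower, 18.5% against 26.7%). Some of these counts rested on few arrays or on the fit. Fitting P10 cornea and tendon alone gave 33. Without lens replicate 2 the count of adult cornea against lens was 27. Without tendon replicate 1, tendon replicate 2 or adult cornea replicate 1 that of adult cornea against tendon was 9, 11 or 12. Without P10 cornea replicate 1 or 2 that of P10 cornea against lens was 26 or 27. That of P10 cornea against tendon was 4 without tendon replicate 1, 7 without tendon replicate 2, and 7 or 9 without P10 cornea replicate 1 or 2. Between the ages of cornea it was 0 without either P10 array and 4 without adult cornea replicate 2.

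Within the list of other Hsp70 genes and exchange factors (11 tested), the stress-inducible Hspa1a and Hspa1b were high in cornea and low in lens and tendon. Hspa8 was instead highest in lens, while for Hspa8, Hspa1a and Hspa1b alike the means of P10 cornea and lens lay above that of tendon. Hspa1b (100946_at) read 1914, 1782 and 1968 in adult cornea, 1946 and 1973 in P10 cornea, 171 and 105 in lens, and 108 and 75.4 in tendon. Hspa1a (93875_at) read 1171, 1009 and 679 in adult cornea, 807 and 663 in P10 cornea, 73.3 and 47.7 in lens, and 35.3 and 31.3 in tendon. This gene was tested only because its cornea values passed the filter on low values. Adult cornea exceeded lens 12.7-fold for Hspa1b (adjusted p = 1.08e-06) and 12.5-fold for Hspa1a (adjusted p = 2.5e-06), and tendon 17.9-fold (adjusted p = 4.45e-07) and 19.2-fold (adjusted p = 9.47e-07). The RefSeq promoter windows of these genes differ at 4 of 300 bases, and such near-identical copies may share probe signal, so they count as one measurement. The immediate-early list (14 of 14 genes), genes quickly induced by many stimuli, summed to 2696 to 3017 in adult cornea, 2781 to 2881 in P10 cornea, 1464 to 1842 in lens and 3248 to 3403 in tendon. Fos from that list read 208, 167 and 80.0 in adult cornea, 127 and 98.5 in P10 cornea, 60.2 and 19.0 in lens, and 97.8 and 120 in tendon.

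The cytosolic chaperonin and prefoldin list (12 tested), which folds actin and tubulin, had 5 genes called lower and 0 higher in adult cornea than in lens, and 6 higher and 0 lower in lens than in tendon. Over all tested probe sets 24.0% were called lower in the first comparison and 22.6% higher in the second. Without lens replicate 1 the first count was 3. Tcp1, a chaperonin subunit, was 3.07-fold higher in lens than in adult cornea (adjusted p = 0.00119) and 4.46-fold higher than in tendon (adjusted p = 0.000338). Cct5, another subunit, was 3.69-fold higher in lens than in tendon (adjusted p = 0.000146). The call of Cct3 lower in adult cornea than in lens was kept in 5 of 18 alternatives fitted with limma. Its other probe sets overlapped between these groups. They read 152, 162 and 97.2 in adult cornea against 135 and 79.8 in lens, and 135, 107 and 155 against 151 and 204. Of J-domain proteins (13 tested), 6 were called higher and 2 lower in lens than in tendon (61.5% in all, against 49.0% over all tested probe sets), or 0 lower without lens replicate 2 or tendon replicate 2, with Dnajb2 at 554 and 437 in lens and between 44.7 and 59.7 on all other arrays. Dnajb2 was tested only because its lens values passed the filter on low values. Of Hsp90 co-chaperones and family members (16 tested), 4 were called higher and 0 lower in lens than in tendon (25.0%, against 22.6% called higher over all tested probe sets), among them Stip1, which bridges Hsp70 and Hsp90, at 3.29-fold (adjusted p = 0.00051).

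Among small heat shock proteins (4 tested), 4 were called lower and 0 higher in adult cornea than in lens, where 24.0% of all tested probe sets were called lower. Against tendon, 3 were called lower and 1 higher in adult cornea (18.9% and 16.1% over all tested probe sets). Through their brightest probe sets, Hspb2 had means of 1755 in lens, 287 in tendon and 68.4 in adult cornea. Hspb8 was highest in tendon, with means of 421 there, 252 in lens and 131 in adult cornea. The dimmer probe sets of both genes did not repeat all of this. That of Hspb2 read 110.5 and 74.6 in lens, 109 and 138 in tendon, and 18.2, 14.3 and 33.8 in adult cornea. That of Hspb8 read 47.3 and 49.5 in lens, 69.1 and 62.7 in tendon, and 70.2, 32.0 and 101 in adult cornea. Cryab (162308_f_at) read 3252 and 2958 in lens, 226, 251 and 220 in adult cornea, 184 and 250 in P10 cornea, and 356 and 371 in tendon, with lens 12.6-fold above adult cornea (adjusted p = 4.33e-07). Its dimmer probe set read 68.8 and 103 in lens and between 1.28 and 23.5 on the other arrays. Cryaa, the lens alpha-crystallin, read 6405 and 7231 in lens and between 1280 and 3082 on the cornea arrays, beside 12.2 and 31.7 in tendon. The list of stress transcription factors (8 tested) also held Hspb11 and Hsbp1, which are not such factors. Of these 8 genes, 0 were called between either cornea and tendon by limma, with 1 at an unadjusted p under 0.05 in each comparison. Without tendon replicate 2 or adult cornea replicate 3, 1 was called between adult cornea and tendon. Hsf4, the heat shock factor of lens development, read 408 and 311 in lens, between -9.64 and 1.11 on the cornea arrays, and 21.3 and 3.60 in tendon. Lens differed from adult cornea (adjusted p = 1.24e-06), P10 cornea (adjusted p = 2.62e-06) and tendon (adjusted p = 5.19e-06). No fold is given for values at or below 0. Hsf4 was tested only because its lens values passed the filter on low values, so these p-values are not independent of that choice. Hsf2 ran the other way, at -68.9 and -248 in lens and between 54.9 and 118 on the other arrays. It was called lower in lens than in each other group, and its negative lens values entered the fit as 0.

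Of 17 tested genes for folding in the endoplasmic reticulum, 8 were called higher and 2 lower in P10 cornea than in lens (31.6% and 19.4% over all tested probe sets). Adult cornea against lens gave 6 higher and 4 lower (27.2% and 24.0%), and lens against tendon 3 higher and 4 lower (22.6% and 26.4%). Erp44 read 5.70 and -5.78 in lens and between 88.2 and 144 on the other arrays. Between the ages of cornea, 2 genes of this list were called lower and 0 higher in adult than in P10 cornea (11.8%, against 3.88% called lower over all tested probe sets). Serpinh1 (Hsp47), the collagen chaperone, read 524, 556 and 275 in adult cornea and 1337 and 1450 in P10 cornea, a 3.15-fold difference (adjusted p = 0.0192). Pdia6 read 58.0, 118 and 84.2 in adult cornea and 264 and 222 in P10 cornea, a 2.59-fold difference (adjusted p = 0.0152) through its brightest probe set. Another Pdia6 probe set read 81.3, 56.4 and 56.0 in adult and 59.7 and 59.4 in P10 cornea, so its ages overlapped. The remaining Pdia6 probe set, the one closest to Hspa8 above, read 80.9, 145 and 87.5 in adult and 192 and 158 in P10 cornea, with no overlap. Both calls were lost when either P10 cornea array was left out or only the groups compared were fitted (adjusted p up to 0.162 and 0.169). The stromal marker sums above were higher at P10 as well. So were those of pigment cells (4 of 5 markers), at 1246 to 3510 against 503 to 653 in adult cornea, and of red blood cells (4 of 5), at 2004 to 2882 against 799 to 1214. The part of these cell types in the differences was not tested.

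**Figure D5:**
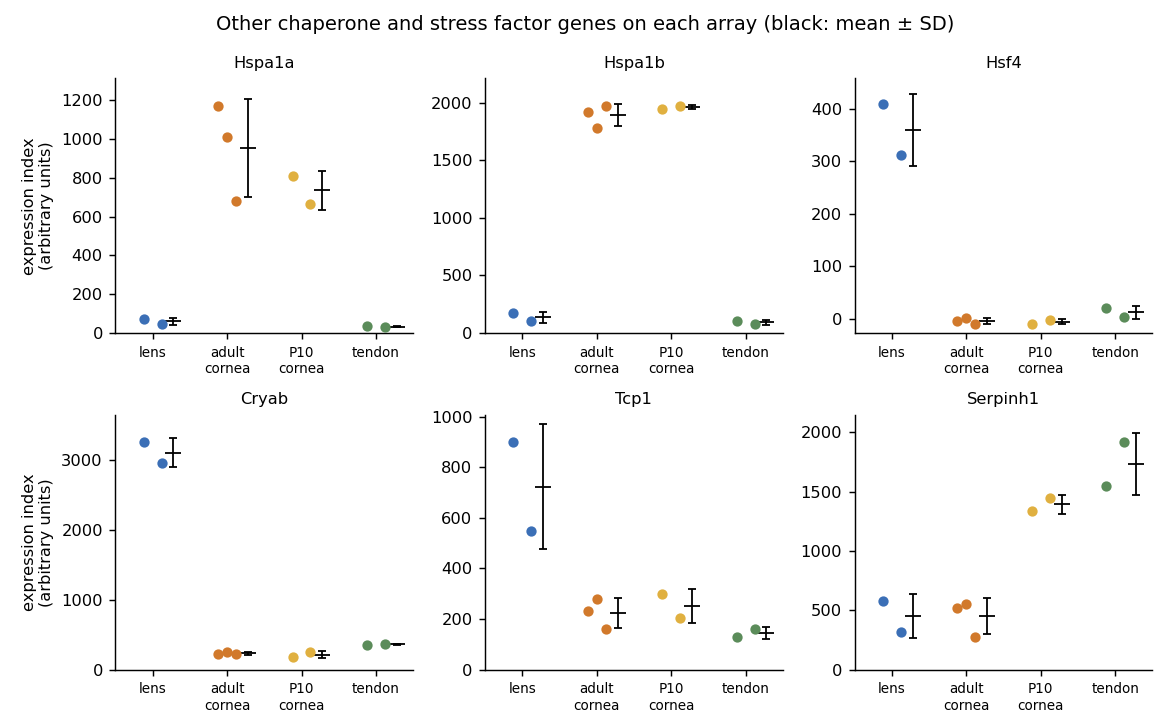
Expression index (linear axis, arbitrary units) of other chaperone and stress factor genes on each of the 9 arrays, each panel with its own scale; points are arrays and black marks the group mean ± SD. Hspa1a and Hspa1b are high on the 5 cornea arrays, from 663 to 1973, while Hsf4 is high in lens, at 408 and 311.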

How the data were processed

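The 9 Affymetrix arrays of adult cornea (3), P10 cornea (2), lens (2) and tendon (2) were used. The deposited intensity values are linear, with 1 index for each probe set. Microarray Suite 5.0 and then dChip, with normalization and a model-based index, are named in the series' design text, and MAS5 without a version in the submitters' processing notes. Which of them made the values, and a genome build, are not given in the sources used here. Between 157 and 544 values on each array lie below 0. Values at or below 0 were set to 0, 16 was added and log2 taken. Probe sets reaching their array's median on at least 2 of 9 arrays were tested (8154 of 12488, without 66 controls). Probe sets were named from the platform annotation (10833 with 1 symbol, 396 with several, 1193 with none). For a gene with several probe sets the one of highest mean was taken. Group means over the 9 arrays were modelled in R 4.3.3 with limma 3.58.1 (variance trend, 5 residual and 4.93 prior degrees of freedom), with two-sided p-values adjusted by Benjamini-Hochberg within each comparison. The fit was tested on simulated data. Replicates are independent RNA preparations per the series' design text.

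The members and lists were chosen with earlier results of these data known, and no list was tested as a set. Named genes are the members, and from each wider list the 2 largest called differences without overlap in each comparison, of which those that matter most are given. The 3 closest probe sets by correlation are given for tested members whose group means span at least 2-fold. Same-numbered arrays of different groups had deviations from their group means that correlated between -0.363 and 0.201 (12 pairs), so the numbers were not taken to pair samples. Alternatives covered pseudocounts of 1 and 64, no filter or a filter on 4 arrays, quantile normalization, trimmed mean scaling, a replicate block, fits of only the groups compared, the mean over probe sets, the methods' t-test (p under 0.05, fold of at least 2, difference of at least 100), leaving out each array and, added after the data were seen, leaving out 87 tested probe sets with a value below -100. Protein sequences were not used here.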

Additional observations from a re-analysis of the deposited data

How the results depend on the processing

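Of 48 member comparisons 17 were called, 11 of them in all 19 alternatives fitted with limma and 12 in every fit without 1 array. Of the 31 others 22 were called in none of these fits, and 0 changed sign with a call. The methods' t-test made 8 of the 17 calls, and 2 after adjustment. By comparison it called 2 members in adult cornea against lens, 1 in P10 cornea against lens and 1 in lens against tendon, and with Benjamini-Hochberg adjustment 1, 0 and 0, with 1 in adult cornea against tendon and 0 in P10 cornea against tendon. Over all tested probe sets, it called 223 (main 373) for adult against P10 cornea, 1773 (main 4175) for adult cornea against lens, 1296 (main 2856) against tendon, 1813 (main 4156) for P10 cornea against lens, 1131 (main 2174) against tendon and 1940 (main 3994) for lens against tendon. With adjustment these were 0, 853, 777, 351, 96 and 924. Fitting only the groups compared gave 194 for adult against P10 cornea and 3832 for P10 cornea against tendon. Without 1 array, member counts ran from 0 to 1, 4 to 4, 3 to 4, 2 to 4, 1 to 4 and 3 to 5 in the same order of comparisons, and counts over all probe sets from 79 to 425, 2687 to 4437, 1379 to 3204, 2622 to 4503, 782 to 2601 and 2527 to 4382. An unchanged member count can hide an exchange of genes in opposite directions, as given above for adult cornea against lens. With the replicate block the member counts were 0, 4, 3, 3, 4 and 5 and those over all probe sets 381, 4291, 3071, 4380, 2474 and 4233, with Dnajb1 lost and Hspa4 gained in adult cornea against lens, and 1 of 8 arrays correlated best with its own number. Quantile normalization moved the median of all probe sets from -0.13 to 0.02 for adult minus P10 cornea, from 0.25 to 0.09 for P10 cornea minus lens and from 0.13 to 0.01 for P10 cornea minus tendon. Trimmed mean scaling moved the first to 0.00. The cause of these shifts was not tested. Dim probe sets such as that of Hspb1 limit what can be seen.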
